A study of Mus musculus with 6 samples.

Results

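Cytosolic ribosomal protein genes were taken as every array probe whose platform symbol starts with Rpl or Rps followed by a digit, or is Rplp0, Rplp1 or Rplp2, leaving out the S6 kinases (Rps6k) and symbols ending in -ps. This gave 94 probes for 64 genes, of 45281 probes and 19057 named genes in all. Of these, 58 probes stood for 38 genes of the large subunit and 36 probes for 26 genes of the small subunit. By symbol, 8 of the genes were counted as outside the core ribosome, namely Rps19bp1, a protein that binds Rps19, and the paralogs Rpl22l1, Rpl36al, Rpl39l, Rpl3l, Rpl7l1, Rps27l and Rps4l. Rps23rg1, a retroposed copy of Rps23, was counted with the core genes. Of the probes, 93 were annotated as protein coding and 1 as a transcribed pseudogene, and 21 genes had more than 1 probe.

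The arrays came from a mouse study whose title names thrombospondin-1 in the stiffening of arteries under disturbed flow, the low and oscillating flow of branched or curved vessels. All 6 samples were total RNA of the carotid artery of C57Bl/6J mice, wild type in genotype and enriched for endothelial RNA by the series' design text, with no agent or altered allele named in the labels. By the sample descriptions 3 were exposed to stable flow and 3 to disturbed flow, and the labels give neither the age of the mice nor the duration of the exposure. Whether each sample is its own mouse or a pool is not stated, so p-values reflect only the spread among these samples, which may be technical. Expression was read on Illumina bead arrays, which give each probe a signal intensity and a detection p-value against negative control beads.

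Ribosomal proteins assemble with ribosomal RNA into a small subunit, which decodes the mRNA, and a large subunit, which joins the amino acids and holds the exit tunnel of the new protein. Their genes are transcribed at a high rate in nearly every cell type, the endothelium included. Their mRNAs start with a pyrimidine tract, the 5′ TOP motif, through which mTORC1 signalling controls their translation, so ribosome output can change without a change in mRNA level.

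Promoter sequence is shown first, for 4 of the genes that the results below describe. It shows the letters around the start that are counted over the family in the next paragraph. Each run holds 100 bases, from 80 before to 20 after the annotated transcription start, 5′ to 3′ on the gene's strand, from the RefSeq table of build GRCm38.p6. Capitals mark CCGGAAG, the core of an ETS factor site, or its reverse complement CTTCCGG, and CTTTCC, a short pyrimidine run, or its reverse complement GGAAAG. The intervals are chr4:86857348-86857447 on the minus strand for Rps6, chr17:27635225-27635324 on the minus strand for Rps10, chr11:98026630-98026729 on the plus strand for Rpl19 and chr11:114668500-114668599 on the plus strand for Rpl38.
Rps6: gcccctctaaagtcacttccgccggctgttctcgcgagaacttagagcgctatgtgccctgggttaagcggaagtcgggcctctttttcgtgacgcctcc
Rps10: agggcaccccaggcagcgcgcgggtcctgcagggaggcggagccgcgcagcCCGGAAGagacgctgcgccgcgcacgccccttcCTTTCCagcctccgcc
Rpl19: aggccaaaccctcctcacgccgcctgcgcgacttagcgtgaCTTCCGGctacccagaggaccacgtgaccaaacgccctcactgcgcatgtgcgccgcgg
Rpl38: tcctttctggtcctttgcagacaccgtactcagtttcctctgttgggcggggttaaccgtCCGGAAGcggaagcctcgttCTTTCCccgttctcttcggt
The windows of Rps10 and Rpl38 hold 2 matches each, that of Rpl19 holds 1, and that of Rps6 holds 0. Like windows of Rpl27a and Rpl28, not printed here, hold 0 and 1.

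Of the 64 genes, 53 had an entry in the promoter table, which gives 300 bases a gene (250 before and 50 after the start). CCGGAAG was found on either strand in 21 of these 53 promoters (39.6%), against 9.12% of the 27025 promoters in the table. CTTTCC was found in 25 of 53 (47.2%), against 26.3%. Both were found in 11 of 53 (20.8%), against 2.49%. By subunit, CCGGAAG was present in 38.7% of large-subunit and 40.9% of small-subunit promoters, and CTTTCC in 58.1% and 31.8%. The motifs can overlap by the letters CC or GG where they adjoin. Such matches are a description of the letters in these windows, not of binding.

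The arrays were uneven, which bears on every value below. The share of all probes with a detection p under 0.05 ranged from 9.74% on stable flow replicate 2 to 35.0% on stable flow replicate 1. On stable flow replicate 2 the log2 signals of the 12546 tested probes had an interquartile range of 0.142, against 0.297 to 0.932 on the other arrays. Wherever 3 values are given for a group, they are those of its replicates 1, 2 and 3 in that order. Each flow group lay on a slide of its own, so slide and flow cannot be told apart. The deposited table of processed values goes against the sample descriptions: each of its 6 columns has the rank order of an array of the other group. Differences are given here as arrays described as disturbed flow minus arrays described as stable flow, and under the names of the processed table each sign would be the opposite one. Of 12 endothelial marker genes, including Pecam1 and Cdh5, 11 were detected on 4 of the arrays, 10 on disturbed flow replicate 3 and 7 on stable flow replicate 2. In RNA from a tissue, fewer cells of a type and less RNA per cell cannot be told apart.

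Ribosomal protein probes were detected far more often than the average probe on each of the 6 arrays. The number above background was 71, 56 and 64 of 94 under stable flow (75.5%, 59.6% and 68.1%). Under disturbed flow it was 75, 70 and 61 of 94 (79.8%, 74.5% and 64.9%). The groups overlapped, and stable flow replicate 2 was the lowest of the 6. That array had 59.6% of ribosomal protein probes above background while 9.74% of all its probes were. By gene, 46 of 64 had a probe detected on all 6 arrays. By probe, 53 of 94 (56.4%) were detected on all 6 and 14 (14.9%) on none, against 5.52% and 50.6% of all probes.

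Small-subunit probes were above background in 80.6%, 66.7% and 75% of cases under stable flow, and in 80.6%, 80.6% and 75% under disturbed flow. Large-subunit probes were above background in 72.4%, 55.2% and 63.8%, and in 79.3%, 70.7% and 58.6%. The small-subunit share was the higher on each array, but it rests on different probes on the same arrays and was not tested.

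**Figure D1:**
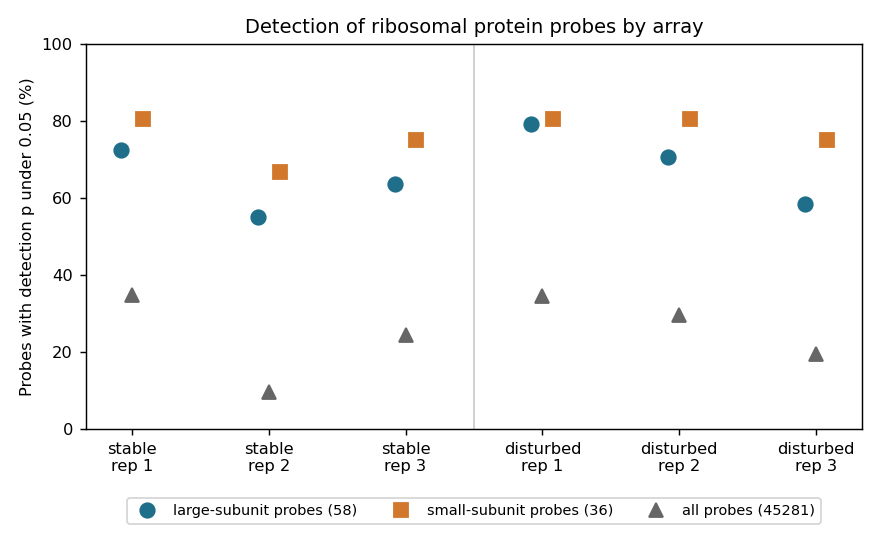
Percent of probes with a detection p under 0.05 (vertical axis) on each of the 6 arrays (horizontal axis), for 58 large-subunit probes, 36 small-subunit probes and all 45281 probes, 1 point per array. Ribosomal protein probes lie between 55.2% and 80.6% on every array, while all probes lie between 9.74% and 35.0%.

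Of the 64 genes, 11 had no probe above background on at least 3 of the 6 arrays and were not tested. They were Rpl6, Rpl14, Rpl17, Rpl21, Rpl3l, Rpl39l and Rplp0 of the large-subunit symbols and Rps15a, Rps20, Rps4l and Rps19bp1 of the small-subunit symbols. Rpl3l, a paralog of Rpl3 known from striated muscle, Rps20 and Rps19bp1 were above background on no array. Rpl39l, a paralog best known from the testis, was above background on 1 array. Rplp0, the base of the stalk that recruits elongation factors, had 2 probes, above background on 0 and 2 arrays, with signals of 76.7 to 113 in both. Rps4l stood at a signal of 313 on stable flow replicate 1 and at 78.1 to 103 on the other 5 arrays. An undetected probe is not evidence of an absent transcript, since 12 genes had 1 probe detected on all 6 arrays and another on 3 or fewer. Rpl37 was one of them, with signals of 1297, 152 and 871 under stable flow and 1692, 1459 and 415 under disturbed flow for 1 probe, and other probes detected on 1 and 0 arrays.

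Before any normalization, ribosomal protein signal was lowest on stable flow replicate 2. The median signal over the 53 tested genes, each taken by the tested probe with the highest mean log2 intensity, was 850, 136 and 746 under stable flow. It was 799, 531 and 379 under disturbed flow. Stable flow replicate 2 had the lowest signal for 50 of 53 genes (94.3%), against 41.0% of tested probes. The exceptions were Rpl4, Rpl7l1 and Rpl22l1, each detected on 4 arrays. After background correction alone, that array was the lowest for 51 of 53 genes and for 9842 of 12546 tested probes. Relative to its own mean over the 6 arrays, the median gene stood at 134%, 24.2% and 104% on the stable flow arrays and at 140%, 89.8% and 63.1% on the disturbed flow arrays. The groups overlapped in this measure.

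The share of summed signal that ribosomal protein probes took up showed the same low array. It was 1.06%, 0.428% and 1.08% under stable flow and 1.33%, 1.15% and 1.16% under disturbed flow. The mean over arrays was 1.03%, or 2.24% after background correction with an offset of 16 kept in every probe. The 3 disturbed flow arrays all lay above the 3 stable flow arrays, the nearest at 1.15% and 1.08%. These sums include background. The median signal of all probes was 110, 88.5 and 101 under stable flow and 88.5, 77.6 and 80.9 under disturbed flow. A two-sided exact permutation test of 3 against 3 arrays cannot go below a p of 0.10, and no test was made. After background correction the shares were 2.10%, 1.08% and 2.46% under stable flow and 2.69%, 2.3% and 2.82% under disturbed flow. The groups overlapped in these corrected shares. Their sums keep the offset of 16 in every probe, which weighs most on the arrays with the lowest signal. The overlap therefore cannot show how the shares would stand without the offset. Of the deposited signal without the brightest Rpl23 probe, the shares were 0.896%, 0.291% and 0.885% under stable flow and 1.13%, 0.929% and 0.959% under disturbed flow, and the groups did not overlap.

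Rpl23, a large-subunit protein known to bind Mdm2 when ribosome assembly is disturbed, carried the brightest ribosomal protein probe. Its signals were 11012, 5687 and 10967 under stable flow and 11295, 10148 and 8761 under disturbed flow. It ranked first among all probes on 4 arrays and second on stable flow replicate 2 and disturbed flow replicate 3. Quantile normalization gives the top ranks the same value on every array, so its normalized log2 intensities were 13.16 to 13.25 and its difference of 0.00 (SE 0.30) says nothing about flow. A second tested Rpl23 probe, with signals of 1934, 372 and 2085 under stable flow and 1809, 1749 and 1160 under disturbed flow, gave a log2 difference of -0.26 (SE 0.32).

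**Figure D2:**
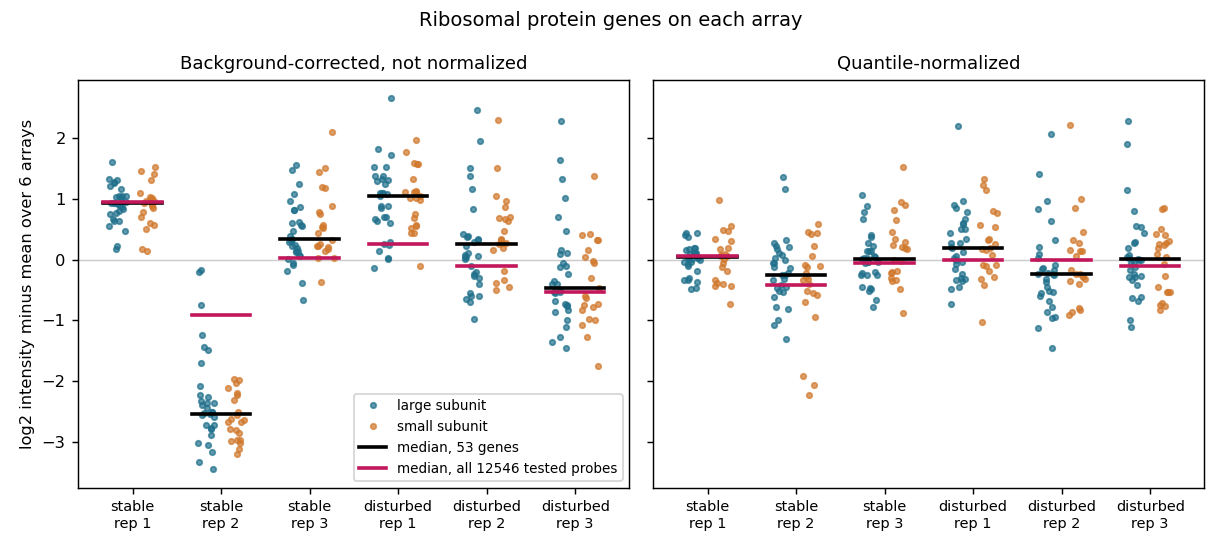
Log2 intensity of each of 53 ribosomal protein genes minus its mean over the 6 arrays (vertical axis) on each array (horizontal axis), after background correction alone and after quantile normalization; points are genes, black lines their median and red lines the median of all 12546 tested probes. Without normalization stable flow replicate 2 lies at a median of -2.54 for ribosomal protein genes and -0.91 for all tested probes, and after normalization at -0.25 and -0.41.

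After background correction with no normalization, the median deviation of the 53 genes from their own means was 0.94, -2.54 and 0.34 log2 units on the stable flow arrays. It was 1.05, 0.26 and -0.46 on the disturbed flow arrays. The tested probes as a whole stood at 0.96, -0.91 and 0.03, and at 0.26, -0.11 and -0.53. The ribosomal protein genes therefore lay further down on stable flow replicate 2 than the median tested probe, and further up on disturbed flow replicate 1. On stable flow replicate 2, translation elongation genes had a median of -2.36, endothelial markers -2.29 and other 5′ TOP mRNAs -1.98. There, initiation genes stood at -1.93, genes of mTORC1 and S6 kinase at -1.16, ribosome biogenesis genes at -0.94 and mitochondrial ribosomal proteins at -0.86. The lists differed in level. On stable flow replicate 1 the quantile-normalized median was 9.0 for ribosomal protein genes, 8.47 for elongation and 8.11 for other 5′ TOP mRNAs. It was 7.89 for endothelial markers, 7.07 for initiation and 6.55 for mTORC1. Biogenesis genes stood at 5.47, mitochondrial ribosomal proteins at 5.29 and all tested probes at 5.37. A probe near background has little room to fall, and no comparison was matched for level. Quantile normalization brought the medians of the 53 genes to 0.05, -0.25 and 0.02 under stable flow and to 0.19, -0.23 and 0.01 under disturbed flow. On that scale 17 of 53 genes (32.1%) had their lowest value on disturbed flow replicate 2, against 9.91% of tested probes. Another 16 (30.2%) were lowest on stable flow replicate 2, against 50.2% of tested probes, and 15 (28.3%) were highest on disturbed flow replicate 1, against 15.1%. The low arrays were in both groups, and the array most often highest was in the disturbed flow group.

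Between stable and disturbed flow, no ribosomal protein gene passed the test. With limma's moderated test on quantile-normalized log2 intensity and Benjamini-Hochberg adjustment over 12546 probes, 0 of 53 genes had an adjusted p under 0.05, against 0.00% of all tested probes. No gene had an unadjusted p under 0.05 either, against 2.69% of tested probes, and the smallest was 0.0744, for Rpl19. Adjusted p-values ran from 0.890, shared by 20 genes, to 1. The log2 difference was above 0 for 30 genes and below 0 for 23, where 57.4% of tested probes were above 0. The median difference was 0.09, against 0.10 over all tested probes. The middle 50% of genes lay between -0.16 and 0.41, against -0.27 and 0.46 for all tested probes. For 35 of 53 genes the difference was smaller than its own SE.

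**Figure D3:**
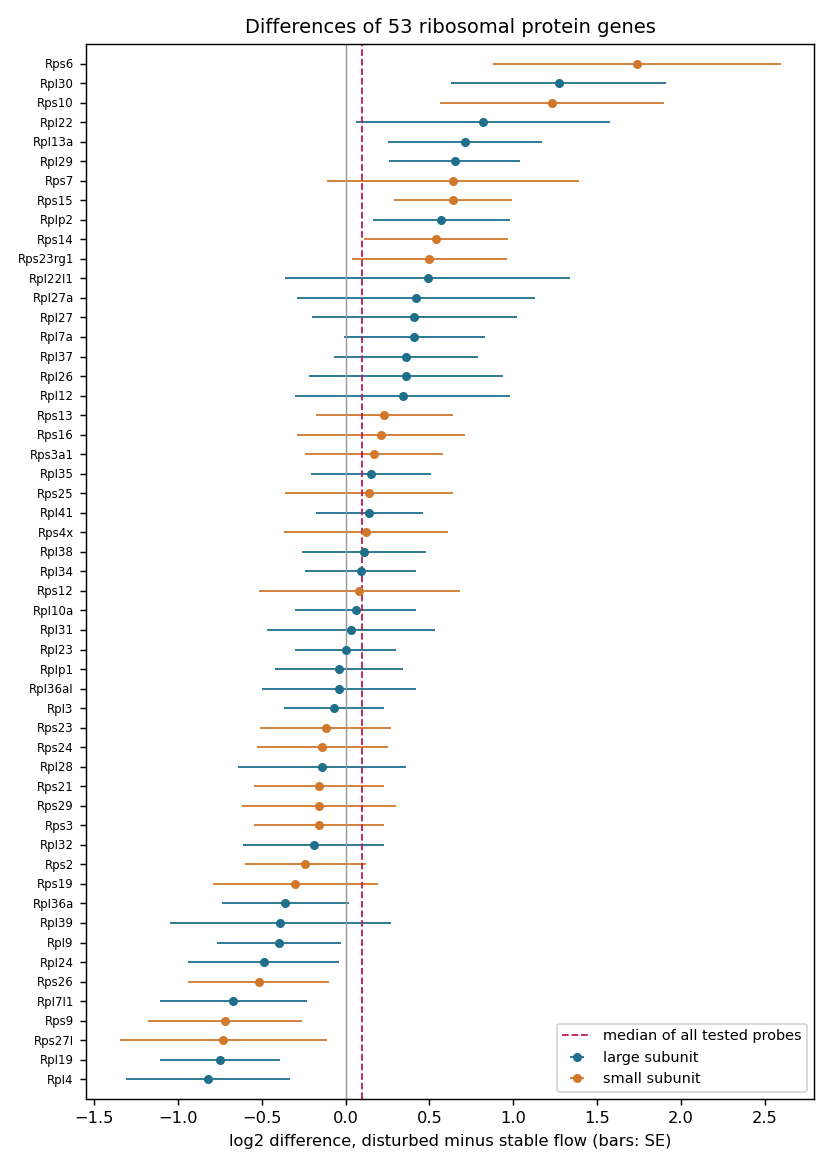
Log2 difference, disturbed minus stable flow by the sample descriptions (horizontal axis), for each of 53 ribosomal protein genes in order of the difference (vertical axis), with bars of 1 SE and the median of all tested probes as a dashed line. The genes run from -0.82 for Rpl4 to 1.74 for Rps6, none passed the test, and large-subunit and small-subunit genes are spread along the whole order.

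The spread of the differences was a little narrower than in the array as a whole. Their SD over the 53 genes was 0.521 log2 units, against 0.623 over all tested probes. The median SE was 0.44, against 0.45, and the median within-group SD was 0.53, against 0.57. Absolute differences above 1 were seen for 3 genes, Rps6, Rps10 and Rpl30, against 11% of tested probes. The 2 groups did not overlap for 5 of 53 genes (9.43%), against 9.68% of tested probes. Rps10 and Rps15 were higher on all disturbed flow arrays, where 5.68% of tested probes were, and Rpl19, Rpl7l1 and Rpl9 were lower, where 4.00% were.

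The large and the small subunit had near-equal medians. The 31 large-subunit genes had a median log2 difference of 0.09, with 18 above 0 and 13 below. The 22 small-subunit genes had a median of 0.10, with 12 above 0 and 10 below. The difference of the medians was 0.00. It was 0.21 over the genes detected on all 6 arrays and 0.15 without stable flow replicate 1. By array, the normalized median deviation was 0.03, -0.21 and 0.01 under stable flow and 0.20, -0.23 and -0.01 under disturbed flow for large-subunit genes. It was 0.06, -0.30 and 0.19, and 0.18, -0.20 and 0.07, for small-subunit genes. Both subunits were low on the second replicate of either group. The 49 tested genes of the core ribosome had a median of 0.11, and the 4 tested genes outside it one of -0.35.

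The median of the family depended on the normalization. With cyclic loess it was -0.02, against 0.02 over all tested probes. With each array scaled to a common 75th percentile it was 0.92, against 0.11, with 51 of 53 genes above 0. With no normalization it was 0.71, against -0.10, with 49 of 53 genes above 0, where 40.4% of tested probes were. No gene was called with any of these, and with no normalization the groups overlapped for all 53 genes, where 1.75% of tested probes did not overlap. Those medians rested on 1 array. Without stable flow replicate 2 the median was -0.03 after quantile normalization, 0.09 after scaling and -0.36 without normalization, against -0.01, -0.11 and -0.55 over all tested probes. That array was left out of the fit only and stayed in the quantile normalization and the scaling. The large and the small subunit moved alike, both with a median of 0.92 after scaling and 0.71 without normalization.

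**Figure D4:**
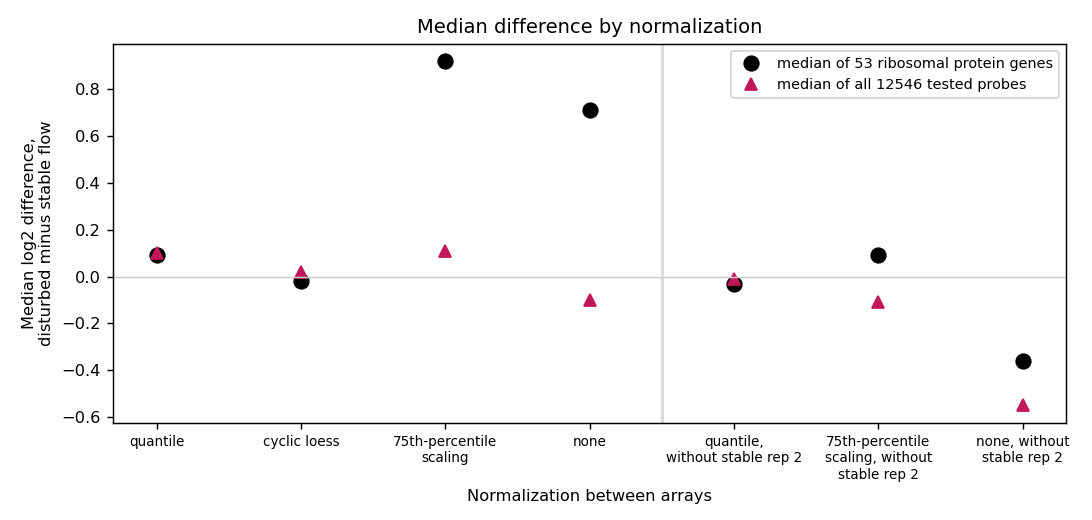
Median log2 difference, disturbed minus stable flow (vertical axis), of 53 ribosomal protein genes and of all 12546 tested probes under 4 normalizations with all 6 arrays and 3 of them without stable flow replicate 2 (horizontal axis). The ribosomal median is 0.92 after scaling and 0.71 without normalization when all arrays are used, and 0.09 and -0.36 without that array; it is 0.09 and -0.02 after quantile and loess normalization.

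Among small-subunit genes, Rps6, which S6 kinase phosphorylates downstream of mTORC1, had the highest difference. Its normalized log2 intensity was 5.74, 4.41 and 6.65 under stable flow and 7.61, 8.68 and 5.71 under disturbed flow. Disturbed flow replicate 3 lay below 2 of the stable flow arrays, and the probe was not above background on stable flow replicate 2. The difference was 1.74 (SE 0.86) with an adjusted p of 0.890 by limma, and 1.07 to 2.55 when any 1 array was left out.

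Rps10, which lies near the entry of the mRNA channel, stood at 7.17, 4.77 and 7.19 under stable flow and at 7.57, 7.84 and 7.40 under disturbed flow. The groups did not overlap, but stable flow replicate 2, where the probe was not above background, made up most of the gap. The difference of 1.23 (SE 0.67, adjusted p 0.890 by limma) came to 0.42 without that array.

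Rps15 is needed for the export of the small-subunit precursor from the nucleus in yeast and human cells. After quantile normalization it was close to constant under stable flow at 8.95, 9.0 and 8.92, from signals of 828, 137 and 648. Under disturbed flow it stood at 10.04, 9.55 and 9.2, above all 3. The difference was 0.64 (SE 0.35, adjusted p 0.890 by limma), and 0.42 to 0.84 when any 1 array was left out. With no normalization it was 1.44 (SE 1.03), the groups overlapped, and stable flow replicate 2 was the lowest array at 5.96.

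Other small-subunit genes lay closer to 0. Rps14, whose human counterpart is lost in the 5q- syndrome, stood at 10.31, 10.04 and 11.03 under stable flow and 10.65, 10.79 and 11.58 under disturbed flow, a difference of 0.54 (SE 0.43). Rps19, whose human counterpart is the gene most often mutated in Diamond-Blackfan anaemia, had a mean log2 intensity of 9.01 ± 0.67 under stable flow and 8.71 ± 0.63 under disturbed flow (SD, n = 3 each), a difference of -0.30 (SE 0.49). Rps3, which lines the mRNA entry, had a difference of -0.16 (SE 0.39) by 1 probe and -0.41 (SE 0.43) by another. Rps4x, the X-linked form of the S4 protein, had a difference of 0.12 (SE 0.49), and Rps2 one of -0.24 (SE 0.36). None of these genes passed the test.

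On the negative side of the small subunit, Rps9, which takes part in decoding accuracy, had 9.81, 9.0 and 10.28 under stable flow and 9.52, 8.51 and 8.88 under disturbed flow. The groups overlapped, with a difference of -0.72 (SE 0.46) and one of -0.40 (SE 0.41) by a second probe. Rps26, which touches the mRNA at its exit, had a difference of -0.52 (SE 0.42). Rps27l, a p53-induced paralog of Rps27, stood at 8.08, 7.88 and 9.73 and at 7.18, 8.65 and 7.67, a difference of -0.73 (SE 0.62). Without stable flow replicate 3 that difference was -0.14.

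In the large subunit, Rpl19, which forms a bridge between the subunits, had the smallest p of the family. Its log2 intensity was 8.66, 8.87 and 9.54 under stable flow and 8.35, 8.10 and 8.37 under disturbed flow. All disturbed flow arrays lay below all stable flow arrays. The difference was -0.75 (SE 0.36, adjusted p 0.890 by limma), and -0.93 to -0.49 when any 1 array was left out. It was -0.06 with no normalization and 0.15 after scaling.

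Rpl30, a small protein at the interface between the subunits, gave opposite answers by its 2 probes. By the probe with the higher mean it stood at 6.48, 6.03 and 6.03 under stable flow and 6.37, 8.89 and 7.09 under disturbed flow, a difference of 1.27 (SE 0.64). Disturbed flow replicate 2 stood far above the other arrays, and without it the difference was 0.55. By the other probe Rpl30 stood at 5.4, 5.34 and 5.43 and at 5.13, 4.73 and 4.47, a difference of -0.62 (SE 0.33). By this second probe the groups did not overlap, and the disturbed flow arrays were the lower. It was above background on 4 arrays only, not on stable flow replicate 2 or disturbed flow replicate 3, with signals of 82.2 to 169. Neither difference passed the test.

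**Figure D5:**
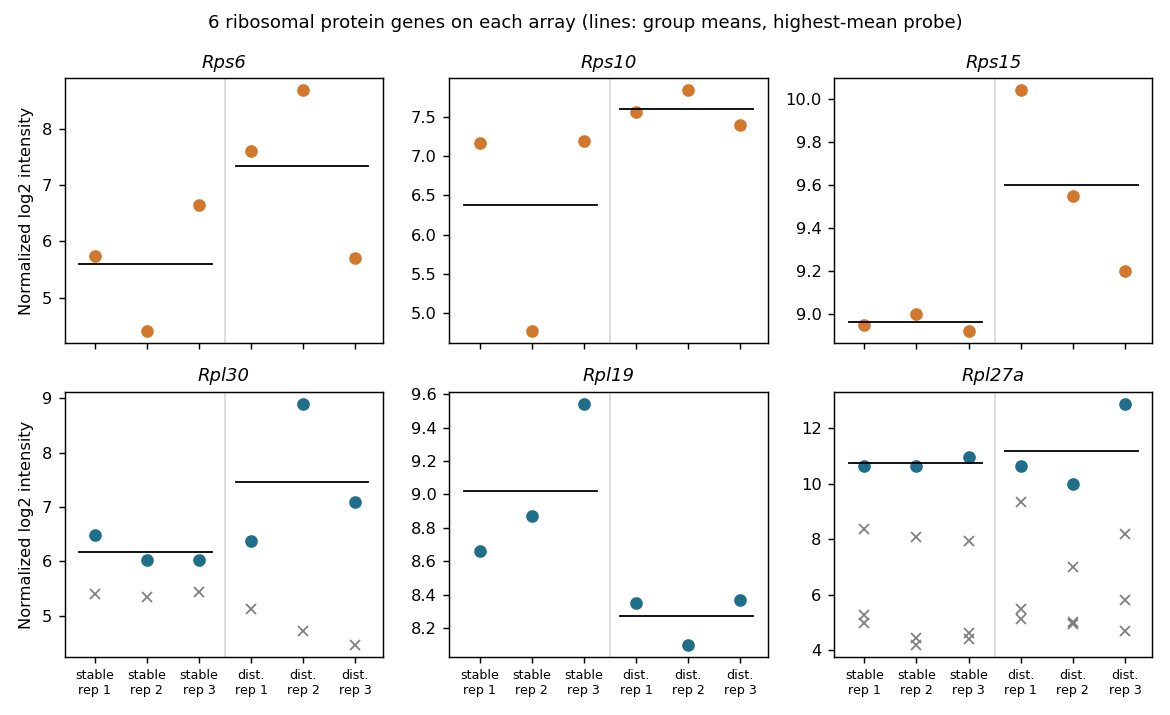
Normalized log2 intensity (vertical axis) of Rps6, Rps10, Rps15, Rpl30, Rpl19 and Rpl27a on each of the 6 arrays (horizontal axis); filled points are the probe with the highest mean, crosses the gene's other tested probes, and lines the group means of the first. By the filled points Rps10, Rps15 and Rpl19 show no overlap between groups, Rpl30 shows probes of opposite sign, and Rpl27a shows a single array at 12.86.

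Several large-subunit genes had 1 array far from the rest. Rpl27a, chosen for mention after its values were seen, stood at 10.62, 10.62 and 10.97 under stable flow. Under disturbed flow it stood at 10.62 on replicate 1 and 12.86 on replicate 3, with its lowest level of all on replicate 2. Its signal on disturbed flow replicate 3 was 8657, against 418 to 2175 on the other arrays. The difference of 0.42 (SE 0.71) came to -0.43 without that array, and of the gene's 3 other probes 1 was highest on that array, at 5.80 against 4.40 to 5.26 elsewhere, and the other 2 were not. Rpl22, which binds RNA and in the mouse represses its paralog Rpl22l1, stood at 8.47 on the same array and at 5.59 to 5.93 on the other 5. Its difference was 0.82 (SE 0.76), and -0.12 without disturbed flow replicate 3. Rpl22l1 itself stood at 7.94 on disturbed flow replicate 1 and at 4.63 to 5.87 elsewhere, a difference of 0.49 (SE 0.85) and -0.49 without that array. Each of these 3 differences rested on 1 array of the disturbed flow group and was negative without it.

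Rpl4, which lines the exit tunnel, had the lowest difference. It stood at 4.70, 6.36 and 5.15 under stable flow and at 4.92, 4.48 and 4.37 under disturbed flow, and was above background on 4 arrays. The difference was -0.82 (SE 0.49), and -0.34 without stable flow replicate 2, its highest array after normalization. Before normalization the Rpl4 signal on that array was 98.1, against 127 and 117 on the other stable flow arrays. The lowest signal detected on that array was 96.5. Rpl7l1, a paralog of Rpl7, had the same high array after normalization, with 4.96, 6.11 and 4.74 against 4.58, 4.70 and 4.52. Its signal there was 97.3, against 141 and 109 on the other stable flow arrays. The difference of Rpl7l1 was -0.67 (SE 0.44) by this probe and 0.29 (SE 0.35) by another.

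The 12 genes detected on all arrays with the smallest SE ran from -0.75 for Rpl19 to 0.64 for Rps15, and for Rpl19, Rpl9 and Rps15 among them the groups did not overlap. Of the rest, Rpl3, which reaches toward the peptidyl transferase centre, stood at 9.13, 9.31 and 9.26 under stable flow and at 9.27, 9.04 and 9.19 under disturbed flow, a difference of -0.07 (SE 0.30). Rpl41, the shortest protein of the ribosome, stood at 10.29, 10.23 and 9.98 and at 10.23, 10.16 and 10.54, a difference of 0.14 (SE 0.32). Rpl34 had a difference of 0.09 (SE 0.33), Rpl35 one of 0.15 (SE 0.36) and Rpl10a one of 0.06 (SE 0.36). With no normalization these 5 genes stood at 0.73, 1.00, 0.86, 0.91 and 0.71, in the same order. The normalized values of these 5 genes overlapped between the groups.

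Rpl38, which in the mouse is needed for the translation of Hox mRNAs and is mutated in Tail short mice, stood at 10.25, 10.13 and 10.22 under stable flow. Under disturbed flow it stood at 10.86, 9.81 and 10.26, a difference of 0.11 (SE 0.37). Rpl13a, which in human myeloid cells can leave the ribosome to silence inflammatory mRNAs, had 5.10 ± 0.62 and 5.81 ± 0.54 (SD, n = 3 each), a difference of 0.71 (SE 0.46). Rpl29, known also as a heparin-binding protein, had a difference of 0.65 (SE 0.39), Rpl26, at the mouth of the exit tunnel, one of 0.36 (SE 0.58) and Rpl32 one of -0.19 (SE 0.42). Rpl9 had a difference of -0.40 (SE 0.37), Rpl36a one of -0.36 (SE 0.38) and its paralog Rpl36al one of -0.04 (SE 0.46). None of them passed the test.

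Of the acidic stalk proteins, which recruit the elongation factors, Rplp1 and Rplp2 were tested. Rplp1 stood at 11.30, 10.35 and 11.01 under stable flow and at 11.14, 10.65 and 10.74 under disturbed flow, a difference of -0.04 (SE 0.38). Rplp2 stood at 9.33, 8.82 and 8.84 and at 9.13, 10.25 and 9.31, a difference of 0.57 (SE 0.41), or 0.22 without disturbed flow replicate 2. Both overlapped between the groups.

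Other genes of protein synthesis are given by their counts, in lists chosen with earlier results of these data known, and 0 probes were called in any of them. Translation elongation factors had 1 of 6 tested genes above 0 and 5 below, with a median log2 difference of -0.46. Translation initiation factors had 7 above and 15 below of 22, with a median of -0.03. Other mRNAs with a 5′ TOP motif had 5 above and 3 below of 8, with a median of 0.03, and genes of mTORC1 and S6 kinase had 5 above and 5 below of 10, with a median of -0.16. Ribosome biogenesis genes had 12 above and 4 below of 16, with a median of 0.43. Mitochondrial ribosomal proteins, which make a separate ribosome, had 46 above and 12 below of 58, with a median of 0.34, where the cytosolic ribosomal proteins had one of 0.09. Of those 58 genes, 39 were lowest on stable flow replicate 2, and their median deviation was 0.15, -0.61 and 0.01 under stable flow and 0.15, 0.08 and -0.07 under disturbed flow. These medians stand beside 0.10 for all tested probes, and no difference between lists was tested. With no normalization the mitochondrial list had a median of -0.10, the same as all tested probes, and the cytosolic family one of 0.71. Endothelial markers then had one of 0.67 and other 5′ TOP mRNAs one of 0.52. Elongation factors turned to 4 above 0 and 2 below, with a median of 0.14. Ribosome biogenesis genes had 9 above and 7 below, with a median of 0.07. Initiation factors and mTORC1 genes each had a median of -0.09. Only 2 of 16 biogenesis and 8 of 58 mitochondrial genes were detected on all 6 arrays, against 46 of 53 cytosolic ones.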

How the data were processed

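The arrays read biotin-labelled total RNA, per the labels' protocols. In the deposited table each probe has a signal intensity on every array, which the authors deposited as non-normalized, and none of the values lies below 0. A detection p-value stands beside each deposited intensity, per the file headers; on this platform it compares a probe with negative control beads. The submitters' processing notes name GenomeStudio 2011.1. The authors also deposited processed intensity values, which served as an alternative; how they were made is not stated.

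With limma 3.58.1 in R 4.3.3, neqc corrected the background from the detection p-values, normalized by quantiles and took log2 after adding 16. A probe was tested if its detection p was under 0.05 on 3 or more of 6 arrays, which held for 12546 probes. The test was lmFit and eBayes, two-sided, with p-values adjusted by Benjamini-Hochberg over all of these and a threshold of 0.05. The fit was tested on simulated data. A gene is given by its tested probe with the highest mean. The number of arrays limits the precision. Groups follow the sample descriptions. Pairing of samples across the groups is not stated. Correlations of deviations between arrays of the same number were -0.0347, -0.0739 and -0.0845, and those between arrays of different numbers ran from -0.0643 to 0.114. With deviations from means of 3 arrays, these values cannot show whether samples were paired.

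Symbols came from the platform annotation (1 symbol for 34885 probes, several for 18, none for 10378). The members, the gene lists and the rule for named genes were chosen with earlier results of these data known. That rule took a fixed set, the 5 smallest p-values in each direction, up to 12 genes by smallest SE and genes with probes of opposite sign more than 1 apart. Rpl12, Rpl27, Rpl27a, Rpl31, Rpl37, Rps12 and Rps23rg1, the untested genes listed by name outside the fixed set, the promoters printed and the motifs searched were chosen after values were seen. Rpl5, Rpl10, Rpl11, Rpl10l, Rps18, Rps27 and Rps27a of the fixed set were not analysed here. Probe sequences were not used, so binding of transcripts from processed pseudogenes, which this family has in number, was not tested. Alternatives for the normalization, the background, the filter, the weights, the probe per gene and the arrays used were tried.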

Additional observations from a re-analysis of the deposited data

How the results depend on the processing

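No probe had an adjusted p under 0.05 in any of the 20 alternatives of the fit. By limma, 15 to 2097 tested probes had an unadjusted p under 0.05, of which 0 to 3 were ribosomal protein probes. Each fit tested 12546 probes, except 45281 with no filter and 2500 with detection on all 6 arrays. The medians of the family, the large and the small subunit moved most with the normalization: to 0.71, 0.71 and 0.71 with none, to 0.92, 0.92 and 0.92 with arrays scaled to the same 75th percentile, and to 0.38, 0.35 and 0.42 with neither background correction nor normalization. With no normalization and without stable flow replicate 2, chosen after seeing the data, they were -0.36, -0.35 and -0.38. With the processed table's columns as named the 3 medians were -0.09, -0.09 and -0.10. Large minus small was 0.11 with no filter and 0.21 over probes detected on all 6 arrays. The share of summed signal was 2.24% after background correction, with the offset of 16 still in the value of every probe. Other causes were not tested.

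With any 1 array left out, the medians ran from -0.03 to 0.14 for the family, -0.03 to 0.15 for the large subunit, -0.07 to 0.10 for the small subunit and -0.09 to 0.15 for large minus small; detection ran from 68.5% to 72.6% and the share of signal from 0.973% to 1.15%. Of 39 named genes 20 kept their sign. The other 19 turned, with these log2 differences: Rpl10a -0.20 to 0.23, Rpl12 -0.28 to 0.76, Rpl22 -0.12 to 1.32, Rpl22l1 -0.49 to 1.17, Rpl23 -0.03 to 0.03, Rpl26 -0.20 to 0.85, Rpl27 -0.06 to 1.08, Rpl27a -0.43 to 1.00, Rpl31 -0.38 to 0.54, Rpl32 -0.47 to 0.10, Rpl34 -0.04 to 0.25, Rpl35 -0.05 to 0.30, Rpl36al -0.45 to 0.31, Rpl38 -0.16 to 0.36, Rplp1 -0.31 to 0.16, Rps12 -0.58 to 0.51, Rps19 -0.57 to 0.08, Rps3 -0.38 to 0.17, Rps4x -0.35 to 0.42.

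Under the other settings, named genes whose log2 difference turned sign were these. With no normalization: Rpl23 0.19, Rpl3 0.73, Rpl32 0.60, Rpl36a 0.43, Rpl36al 0.94, Rpl9 0.17, Rplp1 0.82, Rps19 0.49, Rps2 0.50, Rps26 0.31, Rps3 0.53 and Rps9 0.08. After scaling: Rpl19 0.15, Rpl23 0.40, Rpl3 0.94, Rpl32 0.81, Rpl36a 0.64, Rpl36al 1.15, Rpl9 0.38, Rplp1 1.03, Rps19 0.70, Rps2 0.71, Rps26 0.52, Rps3 0.74 and Rps9 0.30. With cyclic loess: Rpl26 -0.01, Rpl31 -0.12, Rpl36al 0.04, Rpl38 -0.06, Rpl41 -0.06, Rps12 -0.11 and Rps4x -0.02. With neither background correction nor normalization: Rpl13a -0.05, Rpl23 0.18, Rpl26 -0.07, Rpl3 0.46, Rpl32 0.35, Rpl36a 0.15, Rpl36al 0.69, Rplp1 0.70, Rps19 0.11, Rps2 0.36, Rps26 0.05 and Rps3 0.43. With array weights: Rpl26 -0.10, Rpl27a -0.08, Rpl34 -0.03 and Rps3 0.05. With the processed table's columns as named, 38 of 39 turned: Rpl10a -0.06, Rpl12 -0.34, Rpl13a -0.78, Rpl19 0.75, Rpl22 -0.82, Rpl22l1 -0.49, Rpl26 -0.36, Rpl27 -0.41, Rpl27a -0.42, Rpl29 -0.64, Rpl3 0.07, Rpl30 -1.26, Rpl31 -0.03, Rpl32 0.19, Rpl34 -0.09, Rpl35 -0.15, Rpl36a 0.36, Rpl36al 0.04, Rpl38 -0.11, Rpl4 0.93, Rpl41 -0.14, Rpl7l1 0.70, Rpl9 0.40, Rplp1 0.04, Rplp2 -0.57, Rps10 -1.22, Rps12 -0.08, Rps14 -0.54, Rps15 -0.64, Rps19 0.30, Rps2 0.24, Rps23rg1 -0.50, Rps26 0.51, Rps27l 0.72, Rps3 0.16, Rps4x -0.12, Rps6 -1.79 and Rps9 0.72. None turned with no background correction, an offset of 50 or the processed columns matched by rank order. None could turn with no filter or with detection on all 6 arrays (33 genes), where only the set of tested probes changed.

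With the replicate block, 0 probes were called, 329 had an unadjusted p under 0.05, the family's median stayed at 0.09 and 0 of 39 named genes turned. Depth on a bead array is signal over background, and it limits most the 7 tested genes not detected on all 6 arrays, namely Rps6, Rps7, Rps10, Rpl4, Rpl13a, Rpl7l1 and Rpl22l1.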
